A study of Rattus norvegicus with 12 samples.

Results

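Cultures of neonatal rat heart muscle cells depleted of Btg1 were compared directly with cultures depleted of its close relative Btg2, across every expressed gene. The comparison used the 3 libraries titled for the Btg1 siRNA and the 3 titled for the Btg2 siRNA, 6 of the 12 libraries in the series. The cells were cardiomyocyte-enriched fractions from the ventricles of newborn (P0) wild-type Sprague-Dawley rats, cultured after fibroblasts had been separated off, and RNA was taken 48 h after transfection. The Btg1 knockdown received 10 nM siRNA against Btg1 with 10 nM scramble siRNA, and the Btg2 knockdown 10 nM siRNA against Btg2 with 10 nM scramble siRNA. Both groups therefore carried the same total dose and the same scramble dose and differed in which transcript was targeted. Scramble controls (20 nM scramble siRNA, 3 libraries) and a double knockdown (10 nM of each targeting siRNA with no scramble, 3 libraries) are given beside them for reference. The labels do not say whether replicates came from separate isolations or wells, so p-values measure the spread between these libraries only. The siRNAs are commercial products whose sequences were not used here, with 1 reagent label per target.

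Btg1 and Btg2 belong to the BTG/TOB family of antiproliferative proteins. Family members bind the Caf1 deadenylase subunits of the CCR4-NOT complex, which shortens poly(A) tails and so starts the decay of many messenger RNAs. Btg2 is also induced as an immediate early gene and by p53, and heart muscle cells leave the cell cycle around birth.

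The targeted transcripts are described first, because they check the labels. Levels are given as CPM, a gene's count scaled to the size of its library with TMM factors, and differences as the log2 change, coded as Btg1 knockdown minus Btg2 knockdown with its standard error (SE). Genes were called at an adjusted p under 0.05 from edgeR's quasi-likelihood F test with Benjamini-Hochberg adjustment over all tested genes. Btg1 stood at 69.9, 61.8 and 66.8 CPM in the 3 Btg1 knockdown libraries and at 296, 305 and 297 CPM in the 3 Btg2 knockdown libraries. The groups did not overlap, and the log2 change was -2.18 ± 0.045 (adjusted p = 2.92e-20 by edgeR), 4.52-fold lower in the Btg1 knockdown. Scramble libraries held 285, 281 and 284 CPM of Btg1 and double knockdown libraries 50.9, 54.4 and 49.8 CPM. Btg2 stood at 169.8, 179 and 177 CPM in the Btg1 knockdown and at 82.8, 85.3 and 87.4 CPM in the Btg2 knockdown, again with no overlap (log2 change 1.04 ± 0.042, adjusted p = 1.38e-14 by edgeR). The Btg2 target was less depleted than the Btg1 target: against scramble, the log2 change was -2.10 for Btg1 in its own knockdown and -0.70 for Btg2 in its own knockdown. Btg2 RNA also rose in the Btg1 knockdown above the scramble libraries (139.7, 132 and 144 CPM, log2 change 0.34, adjusted p = 7.5e-07 by edgeR), whereas Btg1 RNA in the Btg2 knockdown did not pass the test against scramble (log2 change 0.08, adjusted p = 0.16 by edgeR). The effect of unequal depletion of the targets on the differences below was not tested.

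**Figure D1:**
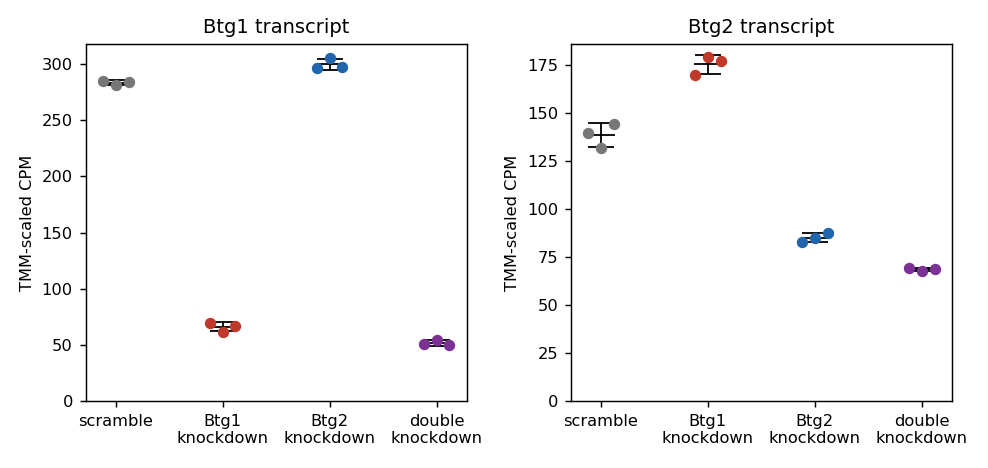
TMM-scaled CPM (linear axis from 0) of the Btg1 transcript, left, and the Btg2 transcript, right, in each of the 3 libraries of the 4 groups. Points are libraries, and the bar and whiskers are the mean ± SD. Btg1 averaged 66.2 ± 4.1 CPM in the Btg1 knockdown and 299 ± 4.7 in the Btg2 knockdown, and Btg2 averaged 175 ± 5 and 85.2 ± 2.3 CPM.

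Of 17419 genes in the table, 12535 passed the filter on low counts and were tested. Among them 5120 (40.8%) were called, 2540 (20.3%) higher in the Btg1 knockdown and 2580 (20.6%) lower. Each count of list members below is to be set against these shares. Most differences were small: the median absolute log2 change was 0.29 among called genes. A difference of at least 1.5-fold was reached by 534 called genes (4.26%) that were higher and 418 (3.33%) that were lower, and at least 2-fold by 139 and 149. The median log2 change over all tested genes was 0.00072. TMM scaling places most genes near 0 by construction, so a change in total RNA could not be seen here. The first principal component of the 6 libraries held 55.3% of their variance and separated the groups. Total counts ran from 34823651 to 46206581 in the Btg1 knockdown and from 24434925 to 41706601 in the Btg2 knockdown. The called share was larger at higher CPM, from 10.5% of genes under 1 CPM to 55.2% of genes at 100 CPM or more, so small differences in weakly expressed genes were not detectable at this depth. In whole cultures, fewer cells of a type and less RNA per cell cannot be told apart, for every result below.

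**Figure D2:**
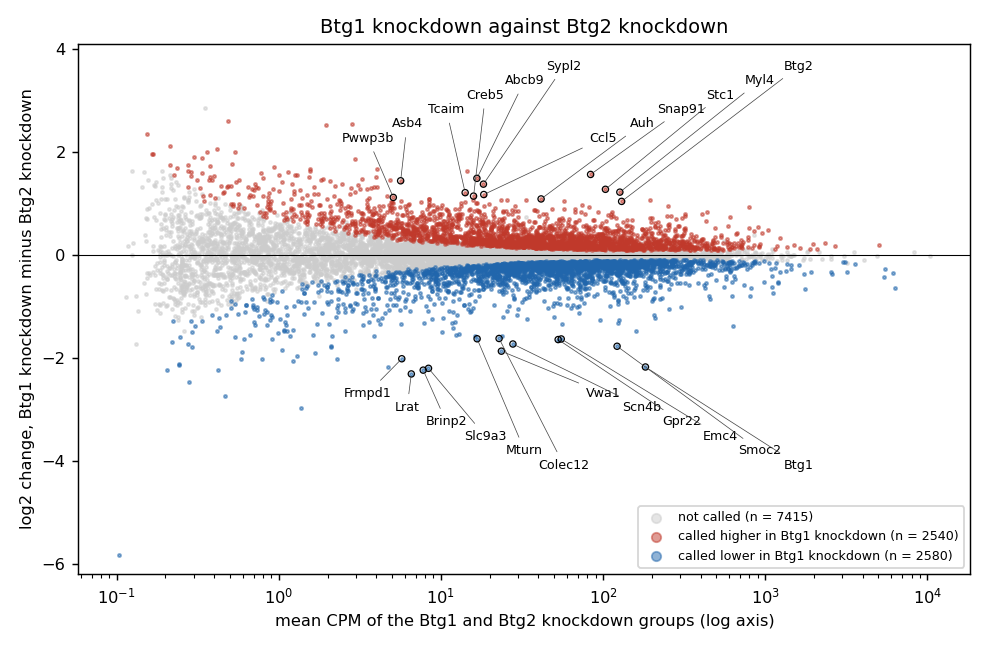
Each point is 1 of 12535 tested genes, placed by its mean CPM over the Btg1 and Btg2 knockdown groups (log axis) and its log2 change, Btg1 knockdown minus Btg2 knockdown. Red points were called higher (2540 genes), blue points lower (2580 genes), and circles mark the targets and genes among those with the largest differences. The called genes lie on both sides of 0 in nearly equal number.

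Among genes with a mean of at least 5 CPM and no overlap between the groups, Snap91, a clathrin assembly adaptor, was among those with the largest differences in favour of the Btg1 knockdown. Snap91 measured 118, 121 and 138 CPM with Btg1 depleted and 42.2, 41.2 and 43.5 CPM with Btg2 depleted, a 2.96-fold difference (log2 change 1.57 ± 0.16, adjusted p = 3.97e-05 by edgeR). Its scramble libraries spread more widely, at 23.5, 37.1 and 38.4 CPM. Abcb9, a lysosomal peptide transporter, came to 24.2, 23.9 and 25.8 CPM against 8.25, 8.35 and 9.59 CPM (log2 change 1.49 ± 0.091, adjusted p = 1.27e-11). Sypl2, a synaptophysin-like membrane protein of striated muscle, came to 25.3, 25.8 and 28.3 CPM against 10.5, 10.03 and 9.93 CPM (log2 change 1.38 ± 0.095). In each of these genes, chosen for no overlap, the lowest Btg1 knockdown library was over the highest Btg2 knockdown library by a wide margin. Asb4, a substrate receptor of ubiquitin ligases, was at a low level (8.78, 7.27 and 8.65 CPM against 2.64, 3.41 and 3.13 CPM, log2 change 1.44 ± 0.16). Myl4, the essential myosin light chain of the atrium and fetal ventricle, reached 175, 174 and 185 CPM against 72.8, 70.4 and 85.1 CPM (log2 change 1.22 ± 0.068, adjusted p = 2.49e-10). Creb5, a transcription factor of the CREB family, and Pwwp3b had log2 changes of 1.14 ± 0.12 and 1.12 ± 0.14. Ccl5, a chemokine for leukocytes, was at 25.7, 26.9 and 23.8 CPM against 12.3, 12.1 and 9.71 CPM (log2 change 1.17 ± 0.091, adjusted p = 5.72e-10).

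Another 3 of the 12 leading higher genes differed mainly through a low level in the Btg2 knockdown. Stc1, which encodes the secreted glycoprotein stanniocalcin, measured 144, 154 and 142 CPM in the Btg1 knockdown, 62.6, 60.4 and 58.4 CPM in the Btg2 knockdown and 117, 133 and 149 CPM in scramble. Tcaim, a mitochondrial protein, measured 20.1, 20.1 and 18.9 CPM, 8.01, 8.81 and 8.77 CPM and 18.996, 18.6 and 19.3 CPM in the same order. Auh, a mitochondrial hydratase of leucine breakdown that also binds AU-rich RNA, measured 55.4, 58.1 and 56.2 CPM, 25.95, 24.7 and 28.8 CPM and 46.7, 50.2 and 51.7 CPM. Against scramble the log2 differences of these 3 genes were 0.14, 0.058 and 0.19 in the Btg1 knockdown and -1.14, -1.15 and -0.90 in the Btg2 knockdown, with log2 changes between the knockdowns of 1.28 ± 0.071, 1.21 ± 0.088 and 1.09 ± 0.062 (adjusted p by edgeR 2.35e-10, 2.35e-10 and 5.41e-12). The double knockdown was low as well, at 64.6, 74.2 and 67.7 CPM for Stc1 and 7.14, 8.70 and 9.33 CPM for Tcaim.

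Under the same selection (a mean of at least 5 CPM and no overlap), the largest difference toward lower levels in the Btg1 knockdown was in Lrat, the acyltransferase that stores retinol as retinyl esters. Lrat measured 2.59, 2.71 and 1.16 CPM with Btg1 depleted and 10.5, 13.1 and 9.35 CPM with Btg2 depleted, 4.96-fold lower (log2 change -2.31 ± 0.27, adjusted p = 1.32e-05 by edgeR). Slc9a3, a sodium-hydrogen exchanger, measured 3.10, 3.45 and 2.41 CPM against 14.1, 13.02 and 14.2 CPM (log2 change -2.20 ± 0.14, adjusted p = 2.95e-11). Brinp2 and the scaffold protein Frmpd1 were also at low levels, with log2 changes of -2.24 ± 0.16 and -2.02 ± 0.13. Genes with more counts differed by nearly as much. Smoc2, a calcium-binding matricellular protein, stood at 57.2, 53.97 and 54.6 CPM against 198, 192 and 177 CPM (log2 change -1.77 ± 0.052, adjusted p = 4.12e-17). Vwa1, a matrix protein of basement membranes, stood at 9.97, 9.03 and 11.6 CPM against 42.5, 33.9 and 34.7 CPM (log2 change -1.87 ± 0.10). Gpr22, an orphan receptor of heart and brain, stood at 29.1, 26.4 and 21.1 CPM against 74.3, 85.2 and 81.3 CPM (log2 change -1.64 ± 0.12, adjusted p = 3.38e-07). Scn4b, an auxiliary subunit of voltage-gated sodium channels, stood at 13.8, 13.1 and 11.6 CPM against 44.2, 42.8 and 41.3 CPM (log2 change -1.73 ± 0.068, adjusted p = 8.79e-15), and Mturn had a log2 change of -1.63 ± 0.092. Each of these groups was separated with no overlap, as the choice of genes required.

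In Emc4 and Colec12 the scramble mean did not lie between the means of the knockdowns. Emc4, a subunit of the complex that inserts membrane proteins at the endoplasmic reticulum, measured 25.4, 25.6 and 29.9 CPM in the Btg1 knockdown, 83.9, 84.4 and 82.2 CPM in the Btg2 knockdown, 84.6, 83.2 and 84.9 CPM in scramble and 24.5, 25.8 and 24.7 CPM in the double knockdown. The Btg2 knockdown and scramble were thus at one level and both groups that received the Btg1 siRNA at a lower one. The Btg1 knockdown was 3.1-fold lower than the Btg2 knockdown (log2 change -1.63 ± 0.055, adjusted p = 3.82e-16 by edgeR). Of the other 9 tested subunits of that complex, 1 was called, Emc3, with a log2 change of 0.093 ± 0.037 that was lost under 9 of the 15 alternatives, among them leaving out any 1 Btg1 knockdown library. The lower count of the list, Emc4 included, was 2 without Btg1 knockdown replicate 1 or Btg2 knockdown replicate 1 and in the fit of the 6 libraries alone. Colec12, a scavenger receptor with a collagen-like domain, measured 12.3, 9.11 and 12.3 CPM against 33.4, 31.7 and 38.4 CPM, with 45.2, 42.8 and 44.2 CPM in scramble and 11.9, 11.7 and 11.4 CPM in the double knockdown. Unlike Emc4, Colec12 was also below scramble in the Btg2 knockdown (log2 change -0.35, adjusted p = 0.0025 by edgeR). With 1 siRNA reagent label per target, loss of Btg1 and an effect of the Btg1 siRNA on other transcripts cannot be told apart, for these genes or for the rest of the comparison, and the same holds for Btg2.

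Set beside the scramble libraries, which both comparisons share, the 9 leading lower genes other than Emc4 and Colec12 had their scramble mean between the knockdowns. Slc9a3, for example, changed by -1.38 in the Btg1 knockdown and by 0.82 in the Btg2 knockdown against scramble on the log2 scale, and Smoc2 by -1.12 and 0.65. Vwa1 and Frmpd1 were farther from scramble in the Btg2 knockdown (1.17 and 1.26) than in the Btg1 knockdown (-0.70 and -0.76). Among the 12 leading higher genes the scramble mean lay between the knockdowns for 8. The exceptions were Snap91, Sypl2, Myl4 and Creb5, whose means were above scramble in both knockdowns. In the Btg2 knockdown, Myl4 and Creb5 passed the test against scramble (adjusted p = 0.00051 and 0.018 by edgeR). Snap91 and Sypl2 did not (log2 change 0.36 and 0.020, adjusted p = 0.14 and 0.91 by edgeR). Myl4 changed by 1.60 in the Btg1 knockdown and 0.38 in the Btg2 knockdown against scramble.

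**Figure D3:**
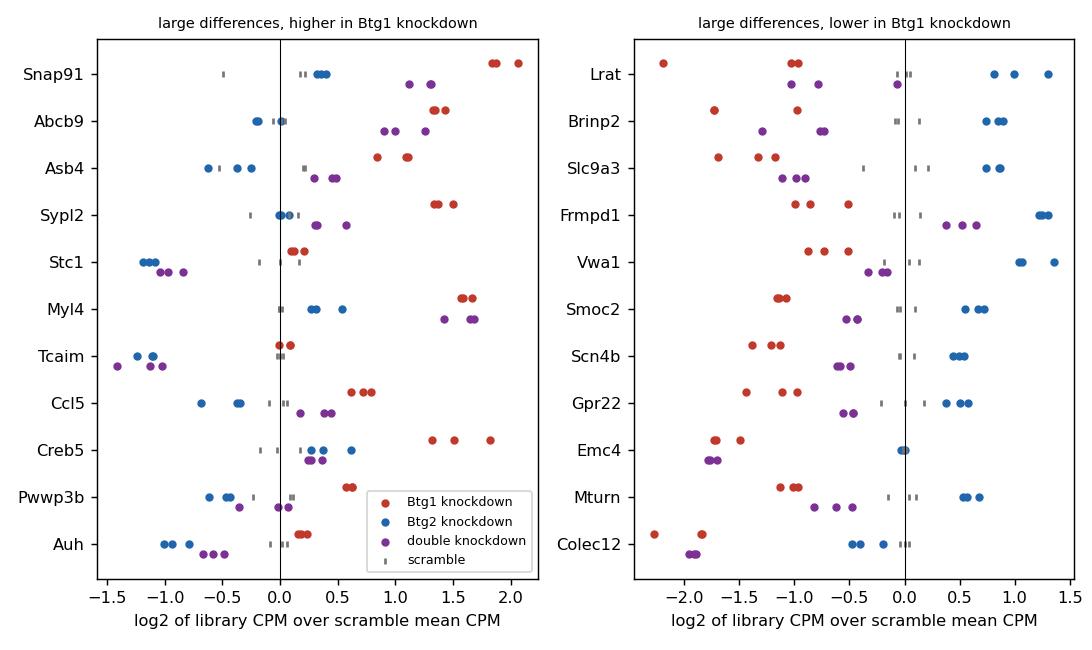
Level of genes among those with the largest differences in each library, as log2 of the library's CPM over the scramble mean CPM (0 is the scramble mean). Left, genes higher in the Btg1 knockdown. Right, genes lower, without Btg1 itself. Points are libraries, coloured by group, and grey ticks are the scramble libraries. Red and blue points lie on opposite sides of 0 for most genes on the right, while both Emc4 groups that received the Btg1 siRNA lie well below 0.

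Genes of cell division were higher with Btg1 depleted than with Btg2 depleted. Of 32 tested genes of G2/M and mitosis, 30 were called higher and none lower, with a median log2 change of 0.64, against 20.3% called higher and a median of 0.00072 over all tested genes. The lower count was also 0 at an unadjusted p under 0.05 and by DESeq2. Ccnb1, the cyclin that drives entry into mitosis, measured 26.04, 24.3 and 29.5 CPM against 15.1, 16.5 and 15.1 CPM (log2 change 0.78 ± 0.086, adjusted p = 1.46e-07 by edgeR), with 18.9, 18.4 and 22.7 CPM in scramble. Aurka, a kinase of the spindle poles, measured 16.6, 15.1 and 16.8 CPM against 8.82, 10.8 and 9.23 CPM (log2 change 0.76 ± 0.088). Ttk, a kinase of the spindle checkpoint, and Cenpf, a kinetochore protein, had log2 changes of 0.97 ± 0.12 and 0.61 ± 0.074. In these 4 genes the libraries of the knockdowns did not overlap, but they were chosen for the smallest p of the list, which favours such separation. Both members that did not pass were phosphatases that activate cyclin-dependent kinases, Cdc25b (log2 change 0.10 ± 0.067) and Cdc25c (-0.13 ± 0.13), named after their values were seen, as were all genes below that are not among the 4 with the smallest p of their list.

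The distance between the knockdowns was made up of moves in both directions from scramble. Averaged over the 32 genes and set to 0 at the scramble mean, log2 levels were 0.32, 0.15 and 0.44 in the Btg1 knockdown libraries, -0.40, -0.27 and -0.25 in the Btg2 knockdown libraries and -0.13, -0.019 and 0.15 in the scramble libraries. All Btg1 knockdown libraries lay above 0 and all Btg2 knockdown libraries below, but scramble replicate 3 was close to Btg1 knockdown replicate 2. The double knockdown lay on the Btg2 side, at -0.40, -0.24 and -0.31. The median change of the list against scramble was 0.34 in the Btg1 knockdown and -0.33 in the Btg2 knockdown. Summed levels of 12 fibroblast markers were 12475 to 14789.9 CPM in the Btg1 knockdown and 15274 to 16169 CPM in the Btg2 knockdown. Col1a1 alone gave means of 4996 and 6032 CPM to these sums. Averaged over the markers relative to scramble, log2 levels overlapped: -0.17, -0.36 and -0.13 in the Btg1 knockdown and -0.25, -0.19 and -0.29 in the Btg2 knockdown. The part of fibroblasts in the difference was not tested.

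Genes of the G1/S transition and DNA replication moved less uniformly. Of 35 tested, 24 were higher in the Btg1 knockdown and 3 lower (median 0.51). Mcm6 and Mcm3, subunits of the replicative helicase, had log2 changes of 0.88 ± 0.078 and 0.65 ± 0.063, with Mcm6 at 47.6, 47.5 and 51.6 CPM against 25.7, 29.9 and 24.7 CPM. Ccne1, cyclin E, which works with Cdk2 at the entry to S phase, was at 16.4, 15.7 and 18.05 CPM against 9.49, 9.57 and 9.62 CPM (log2 change 0.80 ± 0.083). The smallest p of the list belonged to a gene that went the other way: Ccnd3, a D-type cyclin, was at 142, 143 and 153 CPM in the Btg1 knockdown and 229, 221 and 219 CPM in the Btg2 knockdown (log2 change -0.61 ± 0.042, adjusted p = 8.15e-11 by edgeR). The other lower members were Ccnd1, also a D-type cyclin (-0.25 ± 0.047), and the transcription factor E2f3 (-0.60 ± 0.10). Ccnd3 in scramble was at 234, 245 and 229.9 CPM, next to the Btg2 knockdown.

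DNA repair genes followed the replication genes, with 12 of 14 higher and a median of 0.50. Fancd2, a protein of interstrand crosslink repair, measured 11.5, 11.2 and 12.04 CPM against 6.67, 8.56 and 7.93 CPM (log2 change 0.60 ± 0.10), and the checkpoint kinase Chek1 had a log2 change of 0.60 ± 0.12. Fanca, of the same repair pathway as Fancd2, had a log2 change of 0.59 ± 0.13. The single lower call, Atm (-0.18 ± 0.061), was lost on leaving out Btg1 knockdown replicate 2 or 3 or Btg2 knockdown replicate 1 or 3, on scaling by library size alone, and in limma on either TPM scale. Inhibitors of cyclin-dependent kinases, listed together with the pocket proteins Rb1, Rbl1 and Rbl2, went both ways. Cdkn1b, p27, was lower (67.3, 71.6 and 62.8 CPM against 88.2, 86.7 and 89.1 CPM, log2 change -0.39 ± 0.056), while Cdkn3 (0.64 ± 0.13), Cdkn1c (0.27 ± 0.062) and Cdkn2c (0.48 ± 0.13) were higher, and 5 of 10 members were higher in all. The p53-induced inhibitor Cdkn1a did not pass the test (log2 change -0.043 ± 0.044).

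Many cell cycle promoters carry a CCAAT box, the CHR element TTTGAA or the E2F motif TTTNGCGC, and these were searched on both strands in the 250 bases upstream of the start, in promoters of RefSeq on the rat build GRCr8. CCAAT was found in 20 of 25 G2/M promoters in the table and in 34.3% of all 27457, TTTGAA in 12 of 25 and in 16.03% of all, and TTTNGCGC in 1 of 25 and in 1.11% of all. Of 26 promoters of the replication list, 18 held CCAAT, 2 TTTGAA and 7 TTTNGCGC. None of 10 promoters of the DNA repair list held TTTNGCGC, the one motif searched there. A match describes these letters and is neither a site nor a cause. The following 90-base stretches show the element in capitals for members that differed: the CCAAT box in Ccnb1 (2 copies), TTTGAA in Prc1 and Cdk1, and TTTNGCGC in Mcm6 and Mcm2, where overlapping copies on opposite strands run together. Prc1 (log2 change 0.90), Cdk1 (0.72) and Mcm2 (0.52) were chosen after their values were seen, for their element lying close to the start.
Ccnb1 (chr2:33655229-33655318, - strand): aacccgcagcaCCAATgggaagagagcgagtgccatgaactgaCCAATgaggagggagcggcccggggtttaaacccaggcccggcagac
Prc1 (chr1:143659391-143659480, + strand): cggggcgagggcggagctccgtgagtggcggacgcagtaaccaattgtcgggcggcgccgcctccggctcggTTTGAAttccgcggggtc
Cdk1 (chr20:19265203-19265292, + strand): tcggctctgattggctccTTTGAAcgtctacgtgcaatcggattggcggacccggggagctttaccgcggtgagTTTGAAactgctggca
Mcm6 (chr13:42404439-42404528, - strand): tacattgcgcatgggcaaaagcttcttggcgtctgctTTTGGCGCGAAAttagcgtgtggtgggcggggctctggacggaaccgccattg
Mcm2 (chr4:122918095-122918184, - strand): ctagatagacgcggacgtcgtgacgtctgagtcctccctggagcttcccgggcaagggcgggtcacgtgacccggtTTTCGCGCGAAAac

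Genes induced by interferon formed the second group that was almost wholly higher in the Btg1 knockdown. Of 27 tested, 25 were called higher and none lower, with a median log2 change of 0.46, and the lower count was again 0 at an unadjusted p under 0.05 and by DESeq2. Oas1a, an antiviral oligoadenylate synthetase, measured 141, 146 and 129 CPM against 81.2, 86.96 and 82.9 CPM (log2 change 0.73 ± 0.045, adjusted p = 1.46e-11 by edgeR). Ddx58, the cytosolic RNA sensor RIG-I, measured 265, 258 and 236 CPM against 165, 163 and 166 CPM (log2 change 0.62 ± 0.04). Irf7, the transcription factor that amplifies the response, measured 707, 742 and 661 CPM against 498, 462 and 471 CPM (log2 change 0.56 ± 0.044), and the ubiquitin-like modifier Isg15 had a log2 change of 0.57 ± 0.046. No Btg2 knockdown library reached a Btg1 knockdown library in these 4 genes, but they were chosen for the smallest p, which favours such separation. The members that did not pass were Gbp5 (log2 change 0.11 ± 0.053) and Ifit1 (0.20 ± 0.20), the second at a low level (2.29 against 2.06 CPM).

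Against scramble, the Btg2 knockdown differed by -0.31 in Oas1a (adjusted p = 2.00e-05 by edgeR), -0.33 in Irf7 (adjusted p = 4.96e-06), -0.11 in Isg15 (adjusted p = 0.076) and 0.031 in Ddx58 (adjusted p = 0.60). Interferon list means set to 0 at the scramble mean were 0.41, 0.44 and 0.25 in the Btg1 knockdown, -0.072, -0.024 and -0.031 in the Btg2 knockdown, 0.0016, 0.0061 and -0.0077 in scramble and 0.30, 0.31 and 0.27 in the double knockdown. The median change against scramble was 0.40 in the Btg1 knockdown and -0.085 in the Btg2 knockdown. Both groups that received the Btg1 siRNA were thus the higher ones, with Btg1 knockdown replicate 3 the lowest of its group. The summed level of markers of macrophages and leukocytes was 45.6 to 53.6 CPM in the Btg1 knockdown, 43.1 to 45.2 CPM in the Btg2 knockdown and 56.4 to 67.1 CPM in scramble. Of 13 tested, 2 were called higher (C1qc and Cd14), 15.4% against 20.3% of all tested genes, and none of the 13 was at 0. These calls were 0 without Btg1 knockdown replicate 3 and 1 without Btg2 knockdown replicate 1 or 3 or with the filter of 1 CPM. Averaged over the markers, log2 levels relative to scramble were -0.34, -0.37 and -0.11 in the Btg1 knockdown and -0.52, -0.50 and -0.47 in the Btg2 knockdown, with scramble libraries at 0.057, 0.082 and -0.14. The markers thus averaged below 0 in both knockdowns, though higher in the Btg1 than in the Btg2 knockdown. Interferon list means were above 0 in the Btg1 and double knockdowns. In the double knockdown the markers averaged -0.42, -0.19 and -0.23. The part of these markers in the interferon difference was not tested.

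The antigen presentation genes, many of them interferon targets, showed the same direction in smaller steps. Of 13 tested, 11 were higher and none lower by edgeR, DESeq2 or at an unadjusted p under 0.05, with a median of 0.27. The class I gene RT1-S3 measured 252, 259.6 and 231 CPM against 174, 165 and 166 CPM (log2 change 0.56 ± 0.044), Psmb8 and Psmb9, subunits of the immunoproteasome, had log2 changes of 0.63 ± 0.061 and 0.58 ± 0.069, and the peptide-loading protein Tapbp had 0.47 ± 0.049. RT1 genes are near-identical copies among which reads can be divided wrongly, so their separate values are uncertain. The Btg2 knockdown was below scramble here: list means were 0.17, 0.24 and 0.11 in the Btg1 knockdown and -0.11, -0.14 and -0.19 in the Btg2 knockdown. Of 21 inflammatory cytokines and chemokines, 5 were higher and 2 lower, 33.3% called against 40.8% of all tested genes. Csf1, the growth factor of macrophages, was lower (160.0, 172 and 165 CPM against 281, 301 and 306 CPM, log2 change -0.84 ± 0.049, adjusted p = 1.13e-11), opposite to Ccl5. Cxcl12 (0.21 ± 0.049) was higher, as was Tnf (0.36 ± 0.10), whose call was lost without Btg2 knockdown replicate 1 (adjusted p = 0.060). The higher count was 3 without Btg1 knockdown replicate 1 or Btg2 knockdown replicate 3 and 2 without Btg2 knockdown replicate 1, and the lower count was 1 without Btg1 knockdown replicate 1 or Btg2 knockdown replicate 2 or 3 or with scaling by library size alone.

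The interferon-stimulated response element holds a core of 2 GAAA half-sites in the same direction with any 2 bases between them, searched on both strands. It was found in the 250 upstream bases of 14 of 18 interferon promoters and 7 of 13 antigen-processing promoters in the RefSeq table (GRCr8), and in 3.29% of all 27457 promoters. Oas1a and Irf7 are shown as leading members, Ifit3 (log2 change 0.58) as an example with the element close to the start, with the core in capitals.
Oas1a (chr12:41330376-41330465, + strand): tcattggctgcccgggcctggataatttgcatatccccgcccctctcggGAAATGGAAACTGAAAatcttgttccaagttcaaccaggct
Irf7 (chr1:205800043-205800132, - strand): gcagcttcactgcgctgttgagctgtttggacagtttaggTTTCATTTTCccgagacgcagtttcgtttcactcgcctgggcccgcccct
Ifit3 (chr1:241527236-241527325, + strand): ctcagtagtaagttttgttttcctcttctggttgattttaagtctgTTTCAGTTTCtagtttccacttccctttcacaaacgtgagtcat

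**Figure D4:**
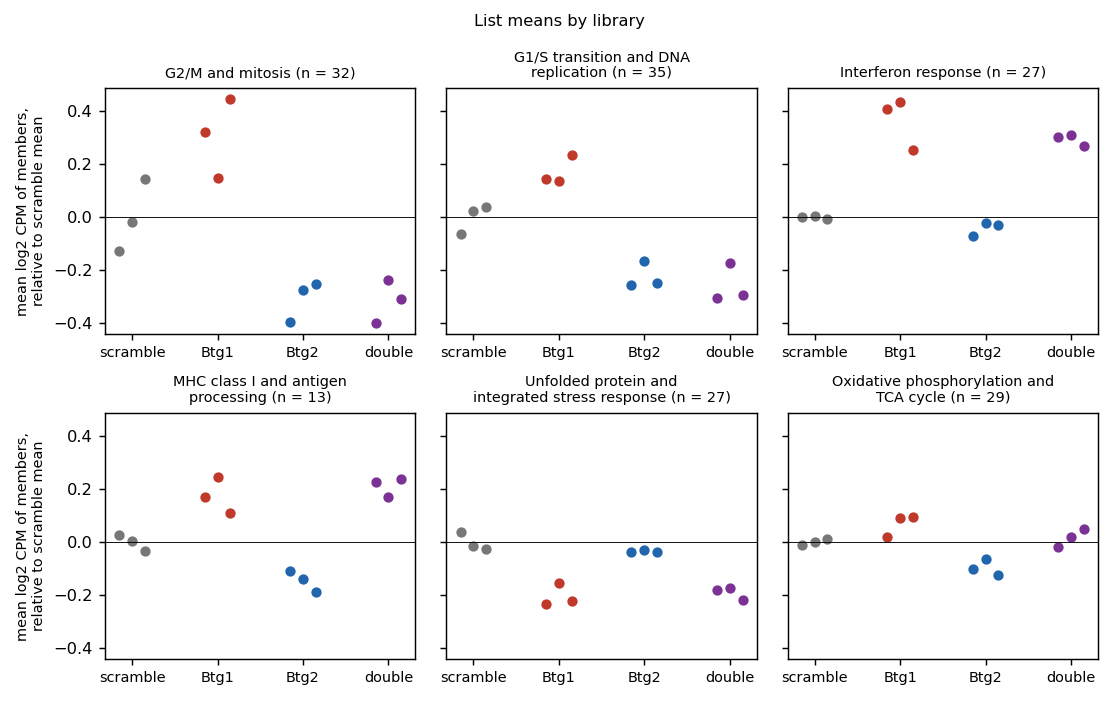
Mean log2 CPM of the tested members of 6 gene lists in each library, set to 0 at the mean of the scramble libraries (n is the number of genes, points are libraries, Btg1 and Btg2 are the single knockdowns). The mitotic list runs from 0.15 to 0.44 in the Btg1 knockdown and from -0.40 to -0.25 in the Btg2 knockdown, and the interferon list from 0.25 to 0.44 and from -0.07 to -0.02.

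Genes of protein folding in the endoplasmic reticulum went the opposite way. Of 27 tested genes of the unfolded protein and integrated stress responses, 18 were lower in the Btg1 knockdown and 1 was higher (median -0.15). Calr, the calcium-binding chaperone calreticulin, measured 975, 974 and 978 CPM against 1402, 1445 and 1395 CPM (log2 change -0.54 ± 0.04, adjusted p = 3.62e-10 by edgeR). The stress sensor Atf6 was at 42.1, 38.6 and 40.1 CPM against 58.5, 60.99 and 57.7 CPM (-0.55 ± 0.054), the chaperone Hspa5 at 1176, 1219 and 1181 CPM against 1454, 1486 and 1514 CPM (-0.32 ± 0.045), and Sel1l, of the degradation pathway, had a log2 change of -0.25 ± 0.039. The one higher member was Sdf2l1 (0.24 ± 0.061). In list means the Btg2 knockdown stayed at -0.037, -0.03 and -0.036 and the Btg1 knockdown at -0.24, -0.16 and -0.22, relative to scramble.

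Antioxidant genes differed in both directions, with 10 of 18 lower, 3 higher and a median of -0.16. Gsta4, a glutathione transferase for lipid peroxidation products, stood at 83.5, 85.3 and 83.998 CPM against 143, 153 and 152 CPM (log2 change -0.82 ± 0.052, adjusted p = 2.81e-11), and the quinone reductase Nqo1 had -0.65 ± 0.049 and the cystine transporter Slc7a11 -0.57 ± 0.076. Srxn1, sulfiredoxin, went the other way at 91.2, 97.8 and 91.7 CPM against 48.2, 54.4 and 54.5 CPM (0.84 ± 0.054). Members regulated by Nfe2l2 were thus found on both sides.

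Mitochondrial energy genes were slightly higher with Btg1 depleted. Of 29 tested genes of oxidative phosphorylation and the TCA cycle, 20 were higher and none lower by edgeR, DESeq2 or at an unadjusted p under 0.05, with a median of 0.14. The largest difference was in Ndufa4, a subunit of the respiratory chain, at 366, 389 and 396 CPM against 239.9, 239 and 219 CPM and 371, 379.8 and 354 CPM in scramble (log2 change 0.72 ± 0.048, adjusted p = 7.78e-11). Fh, fumarase, was at 297, 306 and 306 CPM against 199.7, 216 and 211 CPM and 261, 271 and 272 CPM in scramble (log2 change 0.54 ± 0.04). Against scramble, Ndufa4 changed by -0.66 in the Btg2 knockdown and 0.059 in the Btg1 knockdown, and Fh by -0.36 and 0.18, so the Btg2 knockdown was the group farther away in both. Idh3a (0.26 ± 0.037) and Sdhd (0.21 ± 0.036) were the next by p.

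Cholesterol synthesis genes were higher in 14 of 23 cases and lower in none by edgeR or DESeq2 (2 at an unadjusted p under 0.05), with a median of 0.21. Insig1, which holds back the activation of sterol regulatory factors, measured 378, 381 and 401 CPM against 311, 307 and 299 CPM (log2 change 0.34 ± 0.04, adjusted p = 4.78e-07 by edgeR), and the sterol regulatory factor Srebf2 had a log2 change of 0.31 ± 0.05. The lower count was 1 without Btg1 knockdown replicate 3 or Btg2 knockdown replicate 3, and 2 in the fit of the 6 libraries alone. Of 27 fatty acid genes, 5 were higher and 7 lower, 44.4% called against 40.8% of all tested genes. Cpt1a, which admits long-chain fatty acids to mitochondria in the fetal heart, was at 89.7, 89.1 and 81.6 CPM against 144, 139 and 146 CPM (log2 change -0.72 ± 0.044), Lpl had -0.51 ± 0.046, and the receptor Ppard was higher (0.46 ± 0.047). Of 21 glycolysis genes, 5 were higher and 4 lower, 42.9% called, also near the share of all tested genes. They were led by Pfkp (0.36 ± 0.038), Hk2 (-0.46 ± 0.051) and Pfkfb3 (-0.50 ± 0.086). The higher glycolysis count was 3 without Btg1 knockdown replicate 3 and 8 with scaling by library size alone.

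**Figure D5:**
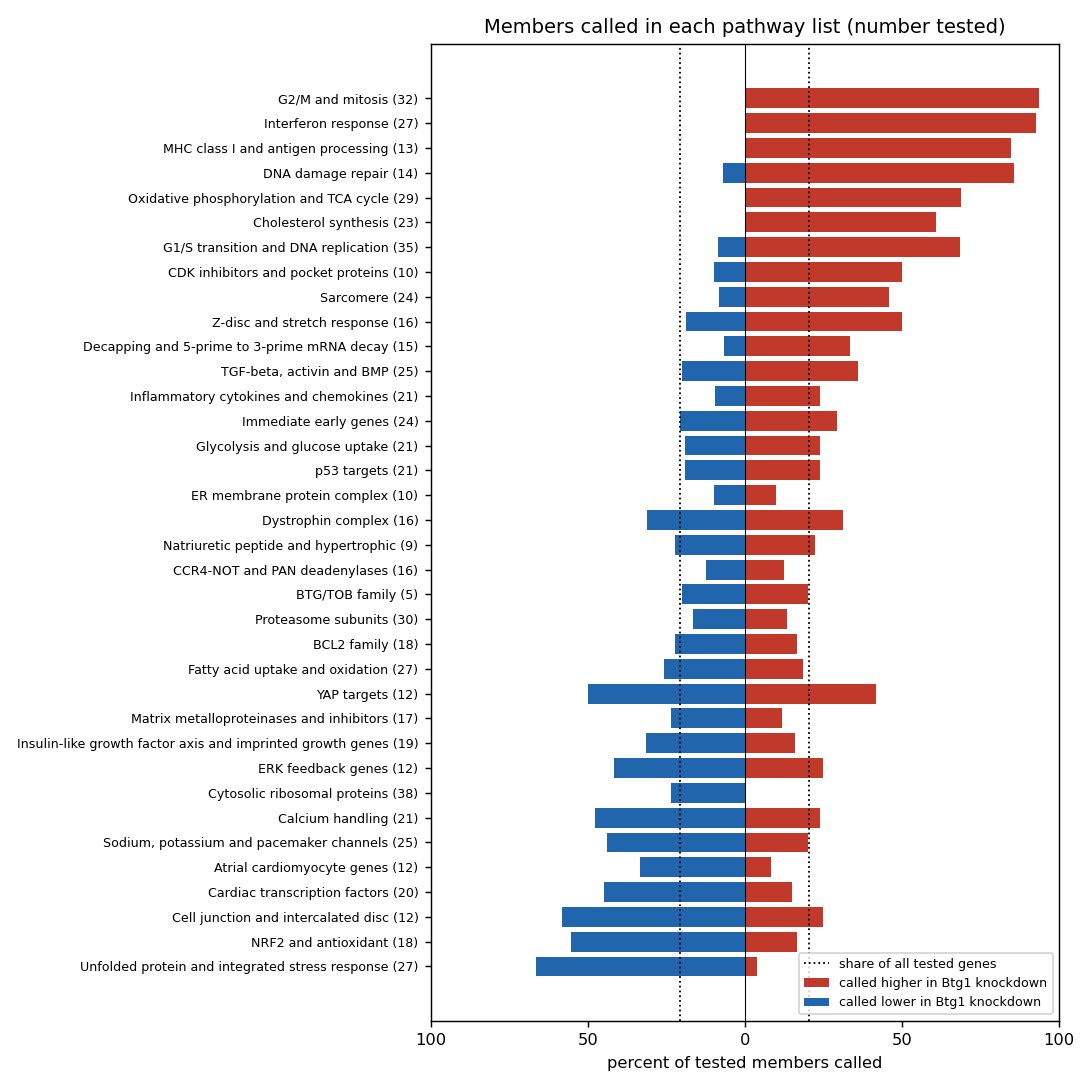
Share of tested members called higher (red, to the right) or lower (blue, to the left) in the Btg1 knockdown than in the Btg2 knockdown for 36 pathway lists, with the number tested in parentheses. Dotted lines mark the shares over all tested genes, 20.3% higher and 20.6% lower. G2/M, interferon and antigen-processing lists stand far to the right, and the unfolded protein list reaches farthest to the left.

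Channels that set the electrical behaviour of heart muscle differed in both directions. Of 25 tested, 11 were lower in the Btg1 knockdown and 5 higher, the latter 3 without Btg1 knockdown replicate 2 or Btg2 knockdown replicate 3. Scn4b, described above, was among the lower. Abcc9, the sulfonylurea receptor of the ATP-sensitive potassium channel, measured 171, 164 and 161 CPM against 333, 346 and 349.6 CPM and 264, 249 and 263 CPM in scramble (log2 change -1.05 ± 0.039, adjusted p = 2.05e-15 by edgeR). The Btg1 knockdown was below and the Btg2 knockdown above every scramble library. Atp1b2, a beta subunit of sodium-potassium pumps, was at 74.4, 76.7 and 60.4 CPM against 175, 181 and 172 CPM (log2 change -1.32 ± 0.063). Abcc9 is also a pericyte marker, and 3 of 6 pericyte markers were lower, with Pdgfrb (-0.22 ± 0.042) and Cspg4 (-0.21 ± 0.061, lost without Btg1 knockdown replicate 1, adjusted p = 0.052) the others. None was higher by edgeR or DESeq2 (1 at an unadjusted p under 0.05), and 1 was without Btg2 knockdown replicate 2 or with scaling by library size alone. The summed pericyte markers were 604 to 649 CPM against 869 to 875 CPM, most of it Abcc9, Pdgfrb and Cspg4, and their part was not tested.

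Calcium handling genes were lower in 10 of 21 cases and higher in 5. Ryr2, the calcium release channel of the sarcoplasmic reticulum, stood at 856, 802 and 779.5 CPM against 1165, 1141 and 1179 CPM (log2 change -0.52 ± 0.039, adjusted p = 4.9e-10 by edgeR). Pln, the inhibitor of the calcium pump, stood at 952, 948 and 944 CPM against 1242, 1303 and 1231 CPM (-0.41 ± 0.038). Jph2, which couples the sarcoplasmic reticulum to the surface membrane, was higher at 322, 325 and 350.4 CPM against 185, 164 and 167 CPM, with 222, 267 and 241 CPM in scramble (0.95 ± 0.073, adjusted p = 1.23e-07). Cacna1c, the pore of the L-type calcium channel, was higher too (0.35 ± 0.038). Release and surface channels thus differed in opposite directions. At the intercalated disc, Gja1, the ventricular gap junction protein, was at 833, 886 and 787 CPM against 1406, 1433 and 1366 CPM (log2 change -0.75 ± 0.044, adjusted p = 8.41e-12) and Cdh2, N-cadherin, at 865, 871 and 856 CPM against 1325, 1345 and 1322 CPM (-0.62 ± 0.039). Gja5 was also lower (-0.62 ± 0.066) and Tjp1 higher (0.36 ± 0.037). Of 12 junction genes 7 were lower and 3 higher, and the lower count was 4 without Btg1 knockdown replicate 1.

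Of 24 sarcomere genes, 11 were higher in the Btg1 knockdown, 2 lower and 11 did not pass, with a median of 0.12. The slow myosin heavy chain Myh7 was lower, at 4703, 4853 and 5138 CPM against 7506, 8064 and 7497 CPM and 5248, 5336 and 5486 CPM in scramble (log2 change -0.65 ± 0.048, adjusted p = 2.99e-10 by edgeR). The other lower member was Myom2, of the M-band (-0.65 ± 0.13). Myl9, a regulatory light chain of smooth and non-muscle myosin, was higher (0.39 ± 0.062), as was Mybpc3 (0.21 ± 0.041), and the fast cardiac isoform Myh6 did not pass (log2 change 0.055 ± 0.046). The natriuretic peptides Nppa (-0.073 ± 0.084) and Nppb (-0.10 ± 0.085) did not pass either, and of 9 hypertrophy genes 2 were higher, Srf (0.36 ± 0.06) and Gata4 (0.14 ± 0.036), and 2 lower, Myh7 and Ankrd1 (-0.17 ± 0.061). The Ankrd1 call was lost without Btg1 knockdown replicate 1 or 2 or Btg2 knockdown replicate 2 (adjusted p = 0.085 to 0.18) and with the replicate block (adjusted p = 0.051). Z-disc and stretch genes included Fhl1, a LIM protein, at 927, 1019 and 1185 CPM against 550.4, 561 and 522 CPM (0.94 ± 0.10), Synpo2l (0.40 ± 0.047) and Nrap (0.25 ± 0.049) on the higher side and Pdlim3 (-0.50 ± 0.048) on the lower, 8 and 3 of 16. Of 12 atrial genes, Myl4 was the only one higher and 4 were lower, Gja5, Kcna5 (-1.91 ± 0.26), Kcnj5 (-0.29 ± 0.071) and Kcnj3 (-0.42 ± 0.13), so the rise of Myl4 was not shared by the atrial list. Kcna5 was at a low level (0.69 against 2.65 CPM).

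The membrane complex that links the cytoskeleton to the matrix held 2 larger differences. Sgcb, beta-sarcoglycan, measured 127, 123 and 124 CPM against 282, 301 and 291 CPM and 325, 310.2 and 317 CPM in scramble (log2 change -1.22 ± 0.041, adjusted p = 3.82e-16 by edgeR). Sspn, sarcospan, measured 335, 328 and 314 CPM against 565, 602 and 602 CPM and 598, 572 and 581 CPM in scramble (-0.86 ± 0.04). Against scramble, Sgcb and Sspn differed by -0.12 and 0.015 in the Btg2 knockdown and by -1.35 and -0.84 in the Btg1 knockdown. The other sarcoglycan genes moved little: Sgca was higher (0.29 ± 0.054), and 5 and 5 of 16 members were higher and lower. Cardiac transcription factors were lower in 9 of 20 cases, with Esrrg, an estrogen-related receptor, at 46.4, 47.7 and 48.8 CPM against 73.8, 73.98 and 75.2 CPM (-0.64 ± 0.052), Irx3 at 61.03, 64.7 and 54.2 CPM against 97.6, 90.6 and 96.5 CPM (-0.66 ± 0.06) and Hopx -0.59 ± 0.063. Those higher were Srf, Gata4 and Nkx2-5 (0.25 ± 0.06).

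Among signalling genes, growth factors of the TGF-beta family were spread, 9 higher and 5 lower of 25. Inha, the inhibin alpha subunit, measured 103, 106 and 109.9 CPM against 71.1, 70.4 and 73.7 CPM (log2 change 0.56 ± 0.043), Tgfb3 65.96, 79.9 and 76.7 CPM against 49.5, 45.4 and 46.5 CPM (0.65 ± 0.063), and Id3 and Fstl3 had 0.42 ± 0.049 and 0.55 ± 0.078. Targets of the YAP coactivator were split even though most passed the test, 5 higher and 6 lower of 12, with Ccn1 (0.43 ± 0.049) and Ajuba (0.41 ± 0.048) on one side and Crim1 (-0.55 ± 0.053) and Lats2 (-0.23 ± 0.039) on the other. The lower count was 3 without Btg1 knockdown replicate 1. Immediate early genes other than Btg2 included Klf4, at 61.8, 65.3 and 63.5 CPM against 89.7, 93.6 and 94.8 CPM (-0.55 ± 0.046), Dusp1 (0.43 ± 0.059) and Atf3 (0.42 ± 0.066), and 7 of 24 were higher and 5 lower. Of growth genes, Plagl1, an imprinted zinc finger factor, measured 129.8, 126 and 116 CPM against 197, 185 and 194 CPM (-0.63 ± 0.056), Igf2r, the clearance receptor of Igf2, 1513, 1529.7 and 1523 CPM against 2010.4, 1963 and 1953 CPM (-0.38 ± 0.037), and Grb10 and Igfbp5 had -0.24 ± 0.037 and -0.54 ± 0.091. Against scramble, Plagl1, Igf2r and Grb10 differed by 0.80, 0.46 and 0.39 on the log2 scale in the Btg2 knockdown, and by 0.16 (adjusted p = 0.029), 0.086 (adjusted p = 0.071) and 0.15 (adjusted p = 0.0025) in the Btg1 knockdown. In that list 3 of 19 were higher and 6 lower, 47.4% called against 40.8% of all tested genes.

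Of 21 genes of the p53 pathway, 5 were higher and 4 lower, 42.9% called against 40.8% of all tested genes. Ccng1, cyclin G, a p53 target, was at 604, 591 and 584 CPM against 864, 905 and 879 CPM and 764, 718 and 771 CPM in scramble (log2 change -0.57 ± 0.04, adjusted p = 1.03e-10 by edgeR). The death receptor Fas was higher (0.49 ± 0.067) and Zmat3 lower (-0.33 ± 0.045). Fas was nevertheless below scramble in both knockdowns, with log2 changes of -0.45 in the Btg1 and -0.94 in the Btg2 knockdown. The higher count of the list was 3 without Btg1 knockdown replicate 2 or Btg2 knockdown replicate 3.

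Genes of the machinery through which BTG proteins are known to act had mostly small differences. Apart from the targets, none of the 3 other tested BTG/TOB genes was called by edgeR or DESeq2 or had an unadjusted p under 0.05, with log2 changes of -0.11 ± 0.066 for Tob2, 0.092 ± 0.058 for Btg3 and 0.039 ± 0.047 for Tob1. Of 16 genes for deadenylases and their partners, 2 were higher and 2 lower, 25% called against 40.8% of all tested genes. Pabpc1, the cytoplasmic poly(A)-binding protein, was the largest, at 760.4, 762 and 775 CPM against 553, 594 and 552 CPM and 790.4, 806 and 793 CPM in scramble (log2 change 0.44 ± 0.039, adjusted p = 5.87e-09), and the low group was the Btg2 knockdown. Cnot9 had a log2 change of 0.26 ± 0.05. Cnot7, the Caf1 subunit that BTG proteins bind, had -0.22 ± 0.06, a call lost without Btg2 knockdown replicate 3 (adjusted p = 0.055), and Pan2 had -0.17 ± 0.054, lost without Btg1 knockdown replicate 2 or 3 or Btg2 knockdown replicate 1 (adjusted p = 0.053 to 0.11) and with library-size scaling (adjusted p = 0.059). Of 15 decapping and decay genes 40% were called, 5 higher and 1, Ddx6 (-0.28 ± 0.063), lower. The higher ones included Lsm2 (0.29 ± 0.073) and Lsm3 (0.28 ± 0.079) of the ring that binds deadenylated ends. That count was 2 without Btg1 knockdown replicate 1 or Btg2 knockdown replicate 3 and 3 without Btg2 knockdown replicate 2. Log2 changes of ribosomal protein genes ran from -0.17 to 0.17, with 9 of 38 lower and none higher by edgeR or DESeq2 (1 at an unadjusted p under 0.05). In all, 23.7% of them were called by edgeR. Their lower count was 4 without Btg1 knockdown replicate 1 and 3 without Btg2 knockdown replicate 2, and 1 was higher without Btg1 knockdown replicate 1 or Btg2 knockdown replicate 1, with scaling by library size alone, in the fit of the 6 libraries alone and in limma on either TPM scale.

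Markers of the cells in the cultures were compared in the same way. Cardiomyocyte markers were detected in all libraries, with summed levels of 17412 to 19164 CPM in the Btg1 knockdown and 18160.4 to 19968 CPM in the Btg2 knockdown, and of 8 of them 2 were higher, Mb (0.63 ± 0.053) and Actn2 (0.11 ± 0.04), and 2 lower, Ryr2 and Pln. The Actn2 call was lost without Btg1 knockdown replicate 3 or Btg2 knockdown replicate 1 or 3 (adjusted p = 0.081 to 0.14) and in the fit of the 6 libraries alone (adjusted p = 0.064). Fibroblast transcripts were detected throughout, with Col1a2 at 2855, 2567 and 3111 CPM against 3610.0, 3580.4 and 3534 CPM (-0.33 ± 0.051) and Col1a1 lower too (-0.27 ± 0.056), while Pdgfra was higher (0.18 ± 0.046). Of 12 fibroblast markers 3 were higher and 3 lower, 50% called against 40.8% of all tested genes. Those counts were 1 higher without Btg1 knockdown replicate 1 and 5 lower without Btg1 knockdown replicate 3, so the list had no common direction. Of 8 smooth muscle and myofibroblast markers 3 were higher, Tagln (0.57 ± 0.048), Cnn1 (0.49 ± 0.071) and Myl9, and none lower by edgeR, DESeq2 or at an unadjusted p under 0.05, with summed levels of 2599 to 3286 CPM and 2511 to 2836 CPM that overlapped. Endothelial markers were called higher once (Egfl7, 0.30 ± 0.10, lost without Btg1 knockdown replicate 3 or Btg2 knockdown replicate 1 or 3, adjusted p = 0.072 to 0.099) and lower once (Flt1, -0.41 ± 0.089) among 11. That was 18.2% called, against 40.8% of all tested genes. Epicardial markers were called higher in 2 and lower in 2 of 6 (Krt18 -0.74 ± 0.10, Krt8 -0.59 ± 0.12, Msln 0.75 ± 0.17 and Tbx18 0.20 ± 0.076), the higher count being 1 without Btg1 knockdown replicate 1 or 3 or Btg2 knockdown replicate 1 or 2 and in limma on either TPM scale. Of 4 tested Schwann and neuronal markers, Dbh was higher (0.42 ± 0.062) and S100b lower (-1.57 ± 0.25), the second at a low level (0.59 against 1.75 CPM). None of the 3 tested erythroid genes was called by edgeR or DESeq2 and none had an unadjusted p under 0.05.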

How the data were processed

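RNA of 12 cultures, 3 in each of 4 groups taken from the sample titles, was sequenced. Per the labels' protocols, total RNA was amplified with Ovation RNA-Seq v2, made into Nextera XT libraries and read in pairs. STAR, featureCounts, cutadapt, Trim Galore and FastQC are listed, with the rat build rn5, per the submitters' processing notes. No source used here gives versions, annotation or the strand setting, so reads of overlapping or antisense genes cannot be told apart.

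The authors deposited raw counts per gene for 17419 symbols, and a TPM table that served only as an alternative. Counts were tested with edgeR 4.0.16 (limma 3.58.1, R 4.3.3): filterByExpr by group, TMM scaling, 1 mean per group over all 12 libraries (8 residual degrees of freedom), a robust quasi-likelihood F test, Benjamini-Hochberg adjustment over 12535 genes and a threshold of 0.05. The SE was obtained by dividing the absolute log2 change by the root of F. In the 6 libraries compared, 1 count was worth 0.0213 to 0.0422 CPM. Amplified reads without molecular identifiers are not independent molecules. Replicates were not copies of each other (chi-square per degree of freedom 5.81 to 11.4). The code was tested on simulated data.

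Named genes are Btg1 and Btg2, the 12 largest changes in each direction among called genes with a mean of at least 5 CPM, no overlap of the groups and an established symbol (Btg1 is 1 of the lower 12), and up to 4 members with the smallest p from each of 45 lists. Some of these genes are not reported here. Comparison, lists and motifs were chosen with earlier results of these data known, and lists overlap, so they support nothing independently. Alternatives replaced edgeR by DESeq2 1.42.0, TMM by RLE or by library size only, and the filter by none or by at least 1 CPM in 3 of the 6 libraries. Others fitted the 6 libraries alone, blocked on replicate number, used limma with log2(TPM + 1) or log2(TPM + 0.1), or dropped each library in turn. Promoters (250 bases before the start) come from RefSeq, build GRCr8, which differs from rn5, and were matched by symbol.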

Additional observations from a re-analysis of the deposited data

How the results depend on the processing

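All 9 alternatives of test, scaling, filter, fit or values called between 4698 and 5393 genes, and leaving out single libraries called 4267 to 4667, with 4267 without Btg2 knockdown replicate 3. Of the genes called in the main analysis, 81.2 to 99.96% were also called, and at most 1 had the opposite sign. The number called higher by at least 1.5-fold was 534 and fell to 316 in limma on log2(TPM + 1), whose pseudocount compresses low values by construction. Leaving out single libraries gave 498 to 536 for that count and 402 to 434 for the genes lower by at least 1.5-fold. Scaling by library size alone moved the share called higher from 49.6 to 57.6% and the median log2 change from 0.00072 to 0.029. Same-numbered libraries of both knockdowns did not deviate together (correlations -0.036, -0.015 and 0.013), and not every library correlated best with its own number, so the numbers were taken as names only. With the replicate block 4985 genes were called, and among the named genes the calls of Ankrd1 and Emc3 were lost. No called named gene changed direction under any alternative. A total of 42 gene values lost their call under 1 alternative or another, and 90 list counts moved by over 1.5 times, mostly counts of 5 or fewer. The cause of these changes was not tested. Replicates number 3 per group, Btg2 knockdown replicate 2 has the fewest counts, and genes under 1 CPM have a median SE of 0.42, so small differences there were not detectable.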

Other observations

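The remaining lists had no common direction. Of 18 genes of the BCL2 family, 3 were higher and 4 lower in the Btg1 knockdown (1 higher without Btg1 knockdown replicate 2). That was 38.9% called, against 40.8% of all tested genes. Mcl1, a survival factor with a short half-life, measured 143, 141 and 140.4 CPM against 175, 178 and 168 CPM (log2 change -0.30 ± 0.039, adjusted p = 1.94e-06 by edgeR), and the death-promoting Bcl2l11, Bim, had a log2 change of -0.34 ± 0.065. Bcl2l2 was lower (-0.20 ± 0.043) and Bak1 higher (0.13 ± 0.04). Among 17 matrix proteases and inhibitors, 2 were higher and 4 lower, 35.3% called. Mmp15, a membrane-bound metalloproteinase, measured 138, 138 and 131 CPM against 76.4, 80.3 and 80.9 CPM (log2 change 0.78 ± 0.043), and the inhibitor Timp3 was lower (-0.44 ± 0.045). The higher count of that list was 4 without Btg1 knockdown replicate 2.

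Feedback genes of the ERK pathway were higher in 3 and lower in 5 of 12 cases. Dusp4, a phosphatase of nuclear ERK, measured 19.7, 20.7 and 21.5 CPM against 33.6, 29.2 and 31.7 CPM (log2 change -0.61 ± 0.069), Spry4 had -0.27 ± 0.046, Spred1 -0.32 ± 0.082 and Spry1 0.37 ± 0.081. The higher count was 1 without Btg1 knockdown replicate 3 or Btg2 knockdown replicate 2, and the lower count 3 without Btg1 knockdown replicate 1 or 3 or Btg2 knockdown replicate 1 or 3, with scaling by library size alone or in limma on either TPM scale, so that list rested on single libraries. Proteasome subunits were higher in 4 and lower in 5 of 30 cases, led by Psmd11 (-0.34 ± 0.036), and the higher count was 8 with scaling by library size alone. In the main analysis 30% were called, against 40.8% of all tested genes.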
